A study of Mus musculus with 16 samples.

Results

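The microRNAs miR-182-5p and miR-183-5p were followed through small RNA libraries of mouse splenic cDC1s, conventional dendritic cells of type 1. Both were chosen by their miRBase identifiers, MIMAT0000211 and MIMAT0000212, and make up 2 of the 853 mature microRNAs in the count table. The choice was made with results of these libraries known, and the comparison behind it is not recorded. The differences between genotypes are therefore given as descriptions, with no p-value, and support nothing beyond themselves. The 16 libraries formed 4 groups of 4. Compound-deficient cells, labelled as knockout of both Ire1 and Xbp1, were set beside the wild type of that line. Xbp1-deficient cells were set beside the wild type of the Xbp1 line. All 16 libraries are labelled as strain C57BL6. The labels give no age, sex or Cre driver, and do not state if replicates are separate mice, so the spread within a group may be technical. The deficient genes are not microRNAs, and the table has no row that checks the genotype labels.

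The pair belongs to a polycistron: a single primary transcript carries the hairpins of miR-183, miR-96 and miR-182, and the enzymes Drosha and Dicer cut the mature microRNAs out of it. The cluster is best known from sensory organs, where it is abundant in photoreceptors and hair cells. In mouse helper T cells miR-182 is induced on activation and represses Foxo1, a transcription factor that restrains proliferation. IRE1 is a sensor of unfolded protein in the endoplasmic reticulum. Its ribonuclease cuts Xbp1 mRNA, so that the spliced form encodes an active transcription factor, and it can cleave other RNAs. miR-96, the third product of the cluster, has been reported among its substrates. cDC1s cross-present antigen to CD8 T cells and are known to keep IRE1 active without added stress. The design compares small RNAs between Xbp1-deficient, compound-deficient and wild-type cells.

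The mature sequences are shown because the pair shares most of its bases but not its seed, bases 2 to 8 from the 5′ end, which set the mRNAs a microRNA pairs with. RefSeq held both members. The seed is in capitals, and miR-96-5p is added for its seed alone, since no row of the count table could be matched to it by name.
miR-182-5p: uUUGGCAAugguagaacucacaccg
miR-183-5p: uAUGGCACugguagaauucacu
miR-96-5p: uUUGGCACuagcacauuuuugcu
Counted from base 1, miR-182-5p and miR-183-5p were identical at 18 of 22 bases. Of the 4 differences, 2 lay in the seed, U2A and A8C, written with the base of miR-182-5p first. The seed of miR-96-5p differed from that of miR-182-5p by A8C and from that of miR-183-5p by A2U. In the RefSeq table no other mouse mature microRNA had the seed of either member, so each is alone in its seed family there.

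On build GRCm38.p6, miR-182-5p lies at chr6:30165962-30165986 and miR-183-5p at chr6:30169711-30169732, both on the minus strand. The 3 hairpins span 3820 bases in the order of transcription miR-183, miR-96, miR-182, with 116 bases between the first and the second and 3453 bases between the second and the third. All lie within the non-coding host gene Mirc35hg, at chr6:30158640-30174125. Whether they fall in its exons or introns was not analysed here. The hairpins of both members follow, with the counted 5p arm in capitals, since a cut by a ribonuclease could act on these precursors.
Mir182: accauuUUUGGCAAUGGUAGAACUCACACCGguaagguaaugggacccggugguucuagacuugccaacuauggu
Mir183: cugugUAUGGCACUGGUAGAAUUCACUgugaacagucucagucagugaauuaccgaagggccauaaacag
CUGCAG, a form of the sequence at which IRE1 cuts, was searched for on the RNA strand. It was found in neither hairpin and not in that of miR-96, and 7.46% of the 1005 mouse hairpins in the table held it. This says only that these letters are not in these windows.

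The library totals ranged from 175165 to 1403393 counts. They averaged 524040 ± 341400 (SD, n = 4) in compound-deficient cells and 518610 ± 252500 in their wild type, and 1065600 ± 261200 in Xbp1-deficient cells and 825760 ± 322500 in theirs. miR-182-5p had 350 to 2681 counts per library and ranked between 31 and 56 by abundance. miR-183-5p had 6 to 102 counts and ranked between 109 and 206. A count of 6 has an exact 95% Poisson interval of 2.2 to 13.1, whereas 350 has one of 314.29 to 388.7, so single values of miR-183-5p are far less precise. Levels below are CPM values on TMM-scaled library sizes, a scaling that assumes most microRNAs do not differ. Fewer dendritic cells of one state in a sample and less microRNA per cell cannot be told apart in bulk libraries.

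Both microRNAs were lower in Xbp1-deficient cDC1s. miR-182-5p stood at 1362, 1248, 983 and 1797 CPM in Xbp1-deficient replicates 1 to 4, against 2531, 1833, 2296 and 2943 CPM in wild-type replicates 4, 5, 6 and 8 of that line. The groups did not overlap, but Xbp1-deficient replicate 4 and wild-type replicate 5 nearly met. The means were 1348 ± 339 and 2401 ± 463 CPM (SD, n = 4 each). The level was 1.78-fold lower, −0.83 on the log2 scale (SE 0.20, 95% interval −1.24 to −0.42). miR-183-5p stood at 32.8, 22.9, 17.7 and 37.5 CPM in the Xbp1-deficient replicates, on 22 to 34 counts, against 63.2, 82.7, 132.7 and 94.5 CPM in the wild-type replicates, on 39 to 102 counts. Every Xbp1-deficient library lay below every wild-type library, but the nearest, Xbp1-deficient replicate 4 and wild-type replicate 4, had overlapping exact 95% Poisson intervals of 24.9 to 54.2 and 49.0 to 80.3 CPM. The means were 27.7 ± 9.07 and 93.3 ± 29.3 CPM. The level was 3.37-fold lower, −1.75 on the log2 scale (SE 0.36, interval −2.51 to −0.99).

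Both members were among the 5 microRNAs called lower by edgeR at an adjusted p under 0.05, which is 1.96% of the 255 tested, and both were among the 18, or 7.06%, whose groups did not overlap with the Xbp1-deficient values lower. Since the pair may have been chosen on this comparison, nothing is read from these shares. The median log2 fold change of all 255 was −0.07. miR-182-5p was no longer called without Xbp1-deficient replicate 1 (log2 fold change −0.82), replicate 2 (−0.80) or replicate 3 (−0.70), without wild-type replicate 6 (−0.85) or 8 (−0.72), or with upper-quartile scaling (−0.69). miR-183-5p was no longer called without Xbp1-deficient replicate 3 (−1.58) or wild-type replicate 6 (−1.53). limma on the authors' deposited log2 values called neither miR-182-5p (−0.77) nor miR-183-5p (−1.67).

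**Figure D1:**
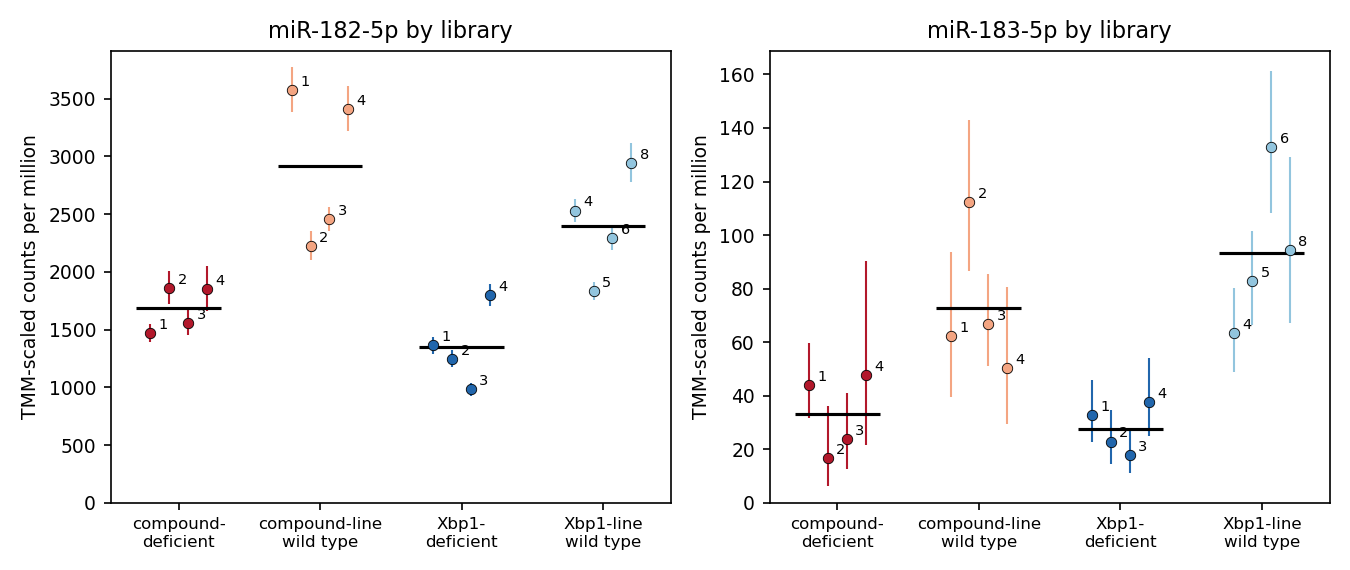
TMM-scaled CPM of miR-182-5p (left) and miR-183-5p (right) in each of the 16 libraries, by group. Points are libraries with their replicate number, vertical bars are exact 95% Poisson intervals of the count, and horizontal lines are group means. For miR-182-5p the means were 1685 and 2917 CPM in compound-deficient cells and their wild type and 1348 and 2401 CPM in Xbp1-deficient cells and theirs. With both lines pooled, all 8 deficient libraries lay below all 8 wild-type libraries for miR-183-5p, at or below 47.6 against at or above 50.2 CPM, as for 5 of the 255 tested microRNAs, or 1.96%. For miR-182-5p they did not, since compound-deficient replicate 2 at 1859 CPM lay above Xbp1-line wild-type replicate 5 at 1833 CPM. Nothing is read from the share of 1.96%, since the pair was chosen with results known.

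Compound-deficient cDC1s were also lower in both. miR-182-5p stood at 1471, 1859, 1559 and 1850 CPM in compound-deficient replicates 1 to 4, against 3574, 2226, 2456 and 3411 CPM in wild-type replicates 1 to 4. The groups did not overlap, and the wild-type libraries fell into a higher and a lower pair. The higher pair, replicates 1 and 4, had the smaller library totals, 363349 and 332923 counts. Replicates 2 and 3 had 496048 and 882108. Whether depth bears on this split was not tested. The means were 1685 ± 199 and 2917 ± 675 CPM (SD, n = 4 each). The level was 1.73-fold lower, −0.79 on the log2 scale (SE 0.20, 95% interval −1.20 to −0.38). miR-183-5p stood at 44.0, 16.7, 23.9 and 47.6 CPM in the compound-deficient replicates, on 41, 6, 13 and 9 counts, against 62.3, 112.2, 66.7 and 50.2 CPM in the wild-type replicates, on 23, 65, 62 and 17 counts. The groups did not overlap here either, but compound-deficient replicate 4 and wild-type replicate 4 were within counting error of each other, with Poisson intervals of 21.8 to 90.3 and 29.3 to 80.5 CPM. The means were 33.0 ± 15.1 and 72.9 ± 27.1 CPM. The level was 2.25-fold lower, −1.17 on the log2 scale (SE 0.38, interval −1.97 to −0.36).

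edgeR called miR-182-5p and not miR-183-5p in this line. The 6 microRNAs called lower were 2.35% of the 255 tested, and both members were among the 13, or 5.10%, whose groups did not overlap with the compound-deficient values lower. DESeq2 gave an adjusted p to 244 of the 255 and called both members, among 12 called lower, or 4.92% of those 244. The choice of the pair may rest on this line too, so nothing is read from these shares. miR-182-5p was no longer called without compound-deficient replicate 1 (log2 fold change −0.73), compound-deficient replicate 3 (−0.76) or wild-type replicate 1 (−0.68), and miR-183-5p was called without wild-type replicate 4 (−1.37) or with upper-quartile scaling (−1.47). Nor was miR-182-5p called by limma on the authors' deposited log2 values (−0.78) or with a replicate block in a fit of this line alone (−0.79). Upper-quartile scaling moved the median log2 fold change of all 255 microRNAs from 0.04 to −0.24.

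**Figure D2:**
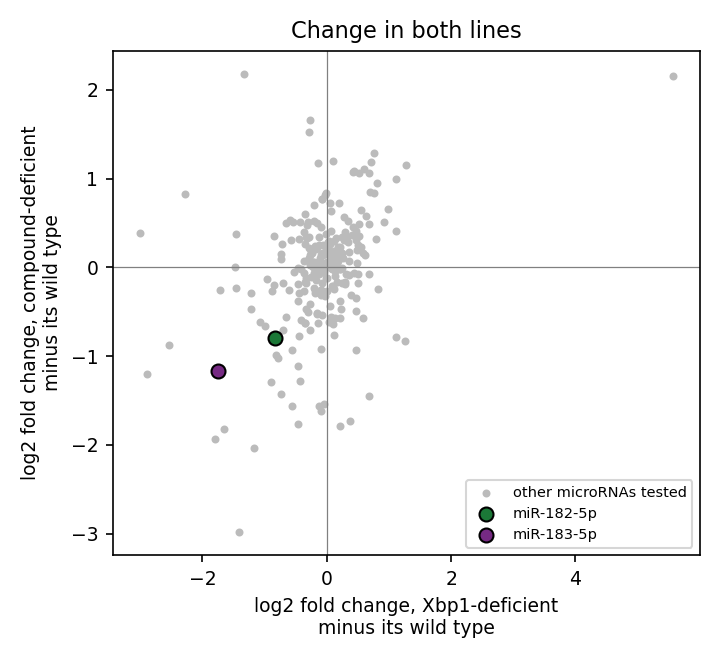
Log2 fold change of each of the 255 tested microRNAs in Xbp1-deficient cells against their wild type (horizontal) and in compound-deficient cells against theirs (vertical), with the pair in colour. miR-182-5p lay at −0.83 and −0.79 and miR-183-5p at −1.75 and −1.17, both in the quadrant lower in both lines.

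The 2 lines share no library, but they were scaled and fitted together. In both, the CPM of each member was lower in all 4 deficient libraries than in all 4 wild-type libraries, which held for 7 of the 255 tested microRNAs, or 2.75%. Lower calls in both lines were made for 3 microRNAs, or 1.18%, and miR-182-5p was one of them. The pair may have been chosen on either line or on both, so nothing is read from these shares. For miR-182-5p the compound-line change minus the Xbp1-line change was 0.04 on the log2 scale (SE 0.28, 95% interval −0.54 to 0.62). For miR-183-5p the difference was 0.59 (SE 0.52, interval −0.51 to 1.68). edgeR called 0 of 255 microRNAs for this difference, with 26 at an unadjusted p under 0.05, limma voom called 0, and DESeq2 called 5 of the 140 to which it gave an adjusted p, with none given for miR-183-5p. The intervals do not show that the changes are equal.

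Set directly against each other, the deficient genotypes overlapped in both members. miR-182-5p was higher in compound-deficient than in Xbp1-deficient cells by a log2 difference of 0.32 (SE 0.20, interval −0.09 to 0.73), and miR-183-5p by 0.25 (SE 0.39, interval −0.56 to 1.06). These differences carry any difference between the lines, and the depth of the libraries differed too. Totals averaged 524040 counts in compound-deficient and 1065600 in Xbp1-deficient cells. With log2 total count as a covariate, which was not planned in advance, miR-182-5p gave −0.010 and miR-183-5p 0.17. Whether depth accounts for the higher levels was not tested. Without the covariate, neither member was among the 19 called, 7.45% of the 255. Between the wild types, miR-182-5p was higher in the compound line by 0.28 (SE 0.19, interval −0.13 to 0.69), while miR-183-5p gave −0.34 (SE 0.35, interval −1.08 to 0.40), with overlapping ranges for both. edgeR called 0 of 255 between the wild types, with 24 at an unadjusted p under 0.05, limma voom called 0, and DESeq2 called 4 of the 254 to which it gave an adjusted p. By mean level, miR-182-5p was highest in the compound-line wild type, followed by the Xbp1-line wild type, compound-deficient cells and Xbp1-deficient cells, and each neighbouring pair in that order overlapped. For miR-183-5p the Xbp1-line wild type came first, followed by the compound-line wild type, compound-deficient cells and Xbp1-deficient cells. Only the step from the compound-line wild type to compound-deficient cells had no overlap.

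**Figure D3:**
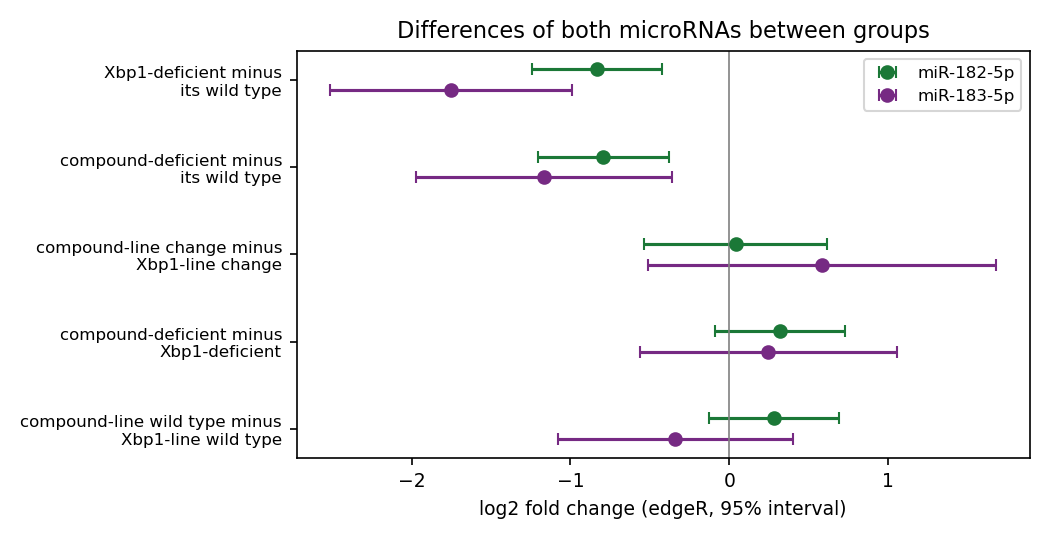
Log2 fold change of miR-182-5p and miR-183-5p in 5 comparisons, as points with 95% intervals from edgeR's fit of 16 libraries. The 4 values against the wild type of the same line lie between −1.75 and −0.79 with intervals below 0, and the 6 other intervals include 0. The intervals are not adjusted for the number of microRNAs and describe members chosen with results known. miR-183-5p was not called in the compound line.

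Since both microRNAs come from 1 transcript, the ratio of their counts was taken in each library, where library scaling cancels. Ligation and amplification differ between sequences, so the ratio is no ratio of molecules and is compared only between libraries. In Xbp1-deficient replicates 1 to 4 there were 41.5, 54.5, 55.6 and 47.9 counts of miR-182-5p per count of miR-183-5p, against 40.0, 22.2, 17.3 and 31.1 in wild-type replicates 4, 5, 6 and 8. The Xbp1-deficient ratios were all higher, by a narrow margin over wild-type replicate 4, at means of 49.9 ± 6.56 and 27.7 ± 10 (SD, n = 4 each). The nearest ratios, 41.5 and 40.0, rested on 34 and 67 counts of miR-183-5p, so counting error blurs their order. How often other microRNA pairs separate in this way was not counted, so nothing is read from the lack of overlap. In compound-deficient replicates 1 to 4 the ratio was 33.4, 111.5, 65.3 and 38.9, against 57.3, 19.8, 36.8 and 67.9 in wild-type replicates 1 to 4. These groups overlapped widely, at means of 62.3 ± 35.6 and 45.5 ± 21.4, and the highest value rested on 6 counts of miR-183-5p.

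**Figure D4:**
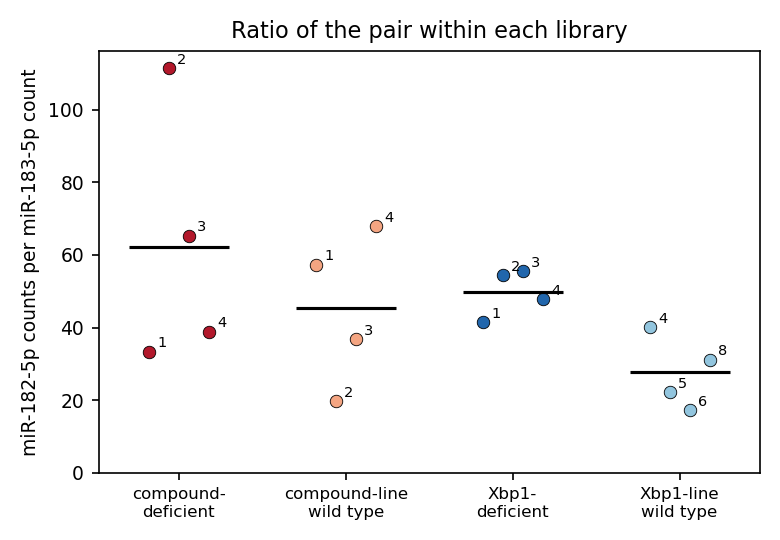
Counts of miR-182-5p per count of miR-183-5p in each library, by group, with replicate numbers and group means as lines. The Xbp1-deficient ratios, 41.5 to 55.6, lay above those of their wild type, 17.3 to 40.0, and the compound-deficient ratios, 33.4 to 111.5, overlapped those of theirs, 19.8 to 67.9. The margin between 41.5 and 40.0 is small beside the counting error of miR-183-5p.

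Within groups, no shared variation of the pair was detectable at this depth. Over the deviations of the 16 libraries from their group means in log2 CPM, Pearson's r was −0.01 (permutation p 0.964) and Spearman's rho −0.03 (permutation p 0.923), with 100000 resamples within groups. Without the 2 libraries farthest from the median of miR-182-5p, Xbp1-deficient replicates 3 and 4, r was −0.34. Taken apart, the 8 deficient libraries gave an r of 0.38 (permutation p 0.333) and a rho of 0.17 (permutation p 0.707), and the 8 wild-type libraries an r of −0.47 (permutation p 0.328) and a rho of −0.38 (permutation p 0.392). Adjusted over these 3 sets, the permutation p of r was 0.964, 0.5 and 0.5 in that order, and that of rho was 0.923 in each. Without the 2 farthest libraries, r was −0.17 in the deficient and −0.33 in the wild-type set. In Xbp1-deficient cells both microRNAs had the same order of libraries, highest in replicate 4 and lowest in replicate 3. In the compound-line wild type the library highest in miR-183-5p, replicate 2, was the lowest in miR-182-5p. The counting error of miR-183-5p limits what these deviations can show.

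**Figure D5:**
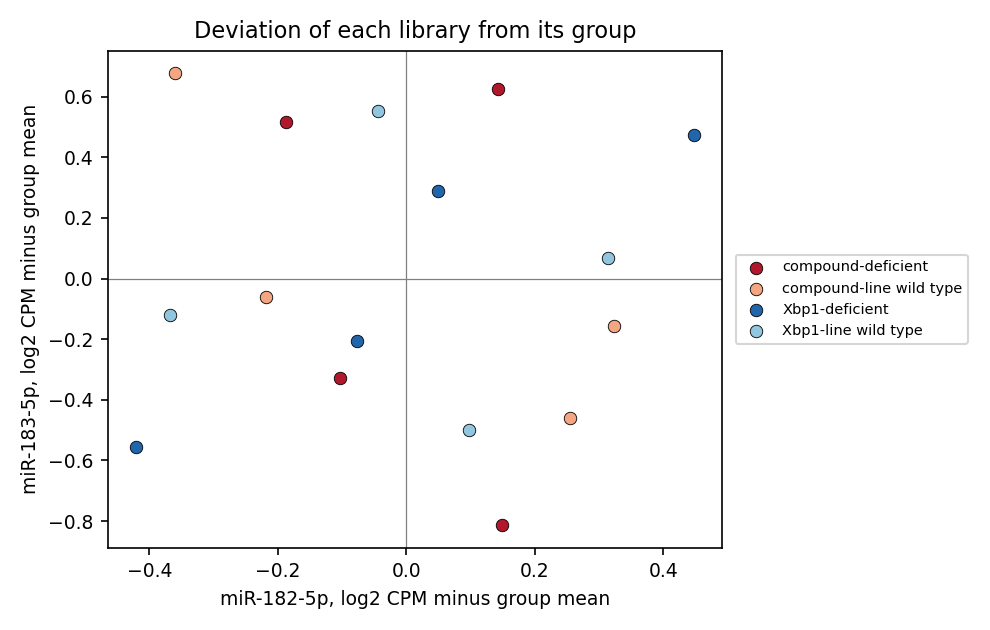
Deviation of each library from its group mean in log2 CPM, for miR-182-5p (horizontal) and miR-183-5p (vertical), coloured by group. The 16 points show no common direction, with a Pearson's r of −0.01.

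Over all 16 libraries, group differences included, the log2 CPM of miR-182-5p and miR-183-5p correlated with an r of 0.65, given as a description. Among the 254 other tested microRNAs, miR-183-5p ranked 10 by likeness to miR-182-5p, and miR-182-5p ranked 12 by likeness to miR-183-5p. The most alike to both was MIMAT0000165, whose name the files do not give, with an r of 0.84 to miR-182-5p and 0.81 to miR-183-5p. The next 4 had an r of 0.73 to 0.78 with miR-182-5p and of 0.72 to 0.81 with miR-183-5p. On deviations from group means, MIMAT0000165 had an r of 0.57 with miR-182-5p and of 0.25 with miR-183-5p. All these points share library depth and scaling.

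Since the hairpins of both members lie within Mirc35hg, the promoter of this host gene is shown. It runs from 250 bases before to 50 after the RefSeq start, chr6:30174076-30174375 on the minus strand of GRCm38.p6. The data do not show where transcription of the cluster starts in these cells. The capitals mark matches to 2 of the 4 motifs searched on both strands.
Mirc35hg: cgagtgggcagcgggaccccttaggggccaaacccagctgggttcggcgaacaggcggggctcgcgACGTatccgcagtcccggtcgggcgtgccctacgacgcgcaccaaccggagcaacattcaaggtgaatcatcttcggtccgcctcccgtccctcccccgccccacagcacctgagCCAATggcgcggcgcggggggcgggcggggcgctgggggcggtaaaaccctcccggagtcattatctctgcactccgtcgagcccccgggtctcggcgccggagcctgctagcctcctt
ACGT, the core that XBP1 and related factors bind, occurred 1 time, and 30.9% of the 32817 mouse promoters of the table held it. CCAAT, the box bound by NF-Y, occurred 1 time, against 37.4% of promoters. TGACGTGG, an unfolded protein response element that contains ACGT, and CCACG, a part of the endoplasmic reticulum stress element, were not found, against 0.7% and 32.8% of promoters. A match describes letters, not binding.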

How the data were processed

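Small RNA libraries of 16 sorted samples were analysed. Per the labels' protocols, cells were sorted into lysis buffer, RNA was extracted with a column kit, and TruSeq small RNA libraries were size selected. The number of sorted cells is given for all samples as 5000 to 50000, not library by library, so input may differ between libraries. Bowtie 1.1.2, cutadapt 1.8.1, limma 3.42.2, FastQC 0.11.3 and the builds mm10 and GRCm38 are listed in the submitters' processing notes, with no order. Not given in the sources used here are the microRNA release and the rule for reads that match several microRNAs. The authors deposited raw counts of 853 mature microRNAs, from 175165 to 1403393 per library. They also deposited log2 CPM values on TMM-scaled library sizes for 473 microRNAs, which recomputation from the counts matched to within 4.97e-14. Molecular identifiers are not mentioned, so counting intervals cover counting error only and may include PCR copies.

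The raw counts were analysed with edgeR 4.0.16 in R 4.3.3: TMM scaling, filterByExpr with a count minimum of 10, and 1 quasi-likelihood fit of 4 group means over 16 libraries, without a replicate block. Of 853 microRNAs, 255 passed the filter, both members included. Benjamini-Hochberg adjustment ran over all 255, with a threshold of 0.05. Each standard error is the size of the log2 change divided by the root of its F value. Log2 CPM used a prior count of 1. The alternatives were other scalings, filters and tools (DESeq2 1.42.0, limma 3.58.1), other samples in the fit, and libraries left out. A depth covariate and a scaling without the pair were added after the data were seen. The members and lists were chosen with earlier results of these data known, so differences of the pair between genotypes are described without p-values. The named microRNAs were the pair, the other products of their transcript and the 5 microRNAs most alike to each member, of which 1 is named because no table used here gives names for the identifiers. For that reason the lists of other transcript products, of IRE1 substrates and of cell type markers could not be matched: 13 reference files held 0 of the 853 identifiers. Sequences are from RefSeq, build GRCm38.p6.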

Additional observations from a re-analysis of the deposited data

How the results depend on the processing

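Of 208 recomputed log2 fold changes of the pair, 206 lay within the replicate SD of the reported value (0.30 for miR-182-5p, 0.53 for miR-183-5p), and all 78 against a wild type of the same line kept their direction. All 78 reuse the same libraries, whose deficient and wild-type groups did not overlap in CPM. A change of direction was therefore unlikely from the outset, and the agreement is no separate support. For miR-182-5p, upper-quartile scaling gave a difference between the lines' changes of −0.38, and a depth covariate, chosen after the data were seen, gave −0.010 between the deficient genotypes; the cause was not tested. Leaving out each library in turn gave log2 fold changes in the Xbp1 line of −1.01 to −0.70 for miR-182-5p and −1.94 to −1.53 for miR-183-5p, and in the compound line −0.93 to −0.68 and −1.42 to −0.88. limma on the authors' deposited log2 values, which adjusts over 473 microRNAs, called neither member in either line. edgeR without a filter, which adjusts over 808, called miR-182-5p in both lines and miR-183-5p in the Xbp1 line alone. What separates these settings was not tested.

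Replicate numbers were shared by the compound-line groups and by the deficient genotypes. Same-numbered compound-line libraries deviated with r of 0.11, −0.26, 0.26 and 0.01, so the numbers were not taken as pairs. In a fit of the compound-line groups alone, the change was −0.81 for miR-182-5p, called, and −1.20 for miR-183-5p, not called, with 6 microRNAs called. With the replicate block added to that fit, it was −0.79 for miR-182-5p, no longer called, and −1.20 for miR-183-5p, with 4 called. Counts of all microRNAs called moved by over 1.5 times, from 2 to 18 around 6 in the Xbp1 line, from 1 to 24 around 15 in the compound line, from 0 to 32 around 19 between the deficient genotypes, and up to 5 and 14 around 0 for the difference and the wild types.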

Other observations

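Compound-deficient replicate 2 had the highest miR-182-5p of its group, 1859 CPM, and the lowest miR-183-5p, 16.7 CPM, which rested on 6 counts with an exact 95% Poisson interval of 6.12 to 36.3 CPM. The opposite order was seen in wild-type replicate 2 of the compound line, with 2226 CPM of miR-182-5p, the lowest of its group, and 112.2 CPM of miR-183-5p, the highest.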
